A study of Rattus norvegicus with 30 samples.

Results

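The genes described are 8 genes of hyaluronan metabolism, Has1, Has2, Hyal1, Hyal2, Cemip, Cd44, Vcan and Tnfaip6, taken by name from the 13124 genes in the count table of the series. All 8 were listed, and all 8 passed the filter on low expression. They were measured by RNA sequencing in the right plantaris tendon of 30 male Sprague Dawley rats aged 3 months, 1 tendon per rat. The 3 control tendons came from rats that had neither surgery nor compound. In the other 27 rats the plantaris tendon was cut through and sutured on both sides, and the rats received GSK2894631A, an inhibitor of hematopoietic prostaglandin D synthase (HPGDS), by gavage in 2 daily doses at 0, 2 or 6 mg/kg, the 0 mg/kg rats being given vehicle alone. Tendons were taken 7 days after repair (5, 4 and 3 tendons in the 7D 0, 2 and 6 mg/kg groups) or 21 days after repair (5 tendons in each of the 21D 0, 2 and 6 mg/kg groups). Control tendons differ from every repaired group in surgery, suture and gavage together, which cannot be told apart. Each tendon had between 12405741 and 49909374 counts in total, so that 3 counts corresponded to 0.0561 to 0.245 CPM (CPM here being counts scaled by library size and TMM factor; the limit covers counting error only).

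Hyaluronan is a long, unsulfated sugar polymer that cells spin out through the plasma membrane. Has1 and Has2 encode hyaluronan synthases, which build the chain from UDP-glucuronic acid and UDP-N-acetylglucosamine at the inner face of that membrane. Outside the cell the chain is held by binding proteins. Vcan encodes versican, a large chondroitin sulfate proteoglycan that binds hyaluronan at one end, and Tnfaip6 encodes TSG-6, a secreted protein that moves heavy chains of inter-alpha-inhibitor onto hyaluronan and so crosslinks it. Cd44 encodes the main cell surface receptor for hyaluronan. Breakdown is shared among Cemip, whose product is needed for the cutting of long hyaluronan at or near the cell surface, Hyal2, a hyaluronidase anchored in the membrane, and Hyal1, a hyaluronidase of the lysosome. Hyaluronan-rich matrix is a known feature of healing connective tissue, where it holds water and lets cells move.

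In the table the genes lie on rat chromosomes 1 (Has1, ENSRNOG00000010994, and Cemip, ENSRNOG00000012442), 2 (Vcan, ENSRNOG00000029212), 3 (Cd44, ENSRNOG00000006094, and Tnfaip6, ENSRNOG00000050792), 7 (Has2, ENSRNOG00000004854) and 8 (Hyal1, ENSRNOG00000015858, and Hyal2, ENSRNOG00000031420). Reads had been aligned to rn6. In the GRCr8 RefSeq annotation Hyal1 overlaps Naa80 and Hyal3, and Has2 overlaps a long noncoding RNA gene. Whether strand was used in counting is not given in the sources used here, so the counts of Hyal1 and Has2 may hold reads of these neighbours. Only the width of each gene with its introns was at hand, so levels are compared between groups and not between genes.

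The start sites of 7 of the 8 genes were matched in RefSeq (GRCr8), with 8 windows of 250 bases before the start. They were searched on both strands for the AP-1 motif TGANTCA, the cyclic AMP response element TGACGTCA and the TATA box TATAAA. None of these motifs contains another. The motifs were chosen after the sequences had been seen, and a match is a description of letters only. Of all 33469 such windows in the rat table, 6.34% held the AP-1 motif, 1.59% the cyclic AMP response element and 12.9% the TATA box. Among the windows of the 7 genes, 1 motif was found in each of Tnfaip6, Has1 and Cemip, which are shown because no other gene had a match. The stretches run 5′ to 3′ on the strand of the gene, with the motif in capitals.
Tnfaip6, chr3:56911148-56911397, plus strand: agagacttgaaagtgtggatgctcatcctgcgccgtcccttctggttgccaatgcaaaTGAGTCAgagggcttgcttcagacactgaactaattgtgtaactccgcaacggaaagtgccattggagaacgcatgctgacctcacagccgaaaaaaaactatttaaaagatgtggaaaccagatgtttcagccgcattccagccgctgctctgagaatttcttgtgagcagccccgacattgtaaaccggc
Has1, chr1:67378509-67378538, minus strand: tcagacttgtcTGACGTCAgccctcctcca
Cemip, chr1:147471497-147471526, minus strand: ccggaaggcgacTATAAAaagcgtcggctg
The AP-1 motif of Tnfaip6 began 192 bases before its start, the cyclic AMP response element of Has1 began 83 bases before, and the TATA box of Cemip began 31 bases before. For Has1 and Cemip only 30 bases are given because the windows reach into the longest annotated extent of the gene. The windows of Vcan, Cd44, Hyal1 and Hyal2 held none of these letters.

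Some tendons stood apart. Control replicate 4 had the lowest level of the 3 control tendons for 7 of the 8 genes, Hyal2 being the exception. It also held the highest share of skeletal muscle counts (20.3% on 12 listed genes of a list of 16, against 13.6 and 13.4% in control replicates 2 and 3) and the lowest summed fibroblast markers (11553 CPM, against 42723 and 32257 CPM). All 12 muscle genes had lower means in every repaired group than in control tendons. Their share was 0.111 to 0.899% at 7D 0 mg/kg, 0.00706 to 0.00903% at 7D 2 mg/kg and 0.00707 to 0.00846% at 7D 6 mg/kg, and 0.0452 to 5.66%, 0.904 to 2.31% and 0.258 to 6.94% at 21D 0, 2 and 6 mg/kg. Myh4, a fast myosin heavy chain, and Acta1, skeletal actin, had the highest mean CPM of them in control tendons, not corrected for length. All 5 fibroblast markers had higher means in every repaired group, where Col3a1 had the highest mean CPM of the list, not corrected for length, with summed levels of 70484 to 113190.1 CPM at 7D 0 mg/kg. All 6 macrophage markers had higher means than control at each dose at 7D, and 5 of the 6 at each dose at 21D. Their summed level was 123 to 639 CPM in control tendons, 668 to 1714 CPM at 7D 0 mg/kg and 363 to 1479.9 CPM at 21D 0 mg/kg. Csf1r had the highest mean CPM of the list in these 3 groups, not corrected for length. All 5 T cell markers had higher means in every repaired group, with sums of 2.29 to 4.95 CPM in control tendons and 28.2 to 62.4 CPM at 7D 0 mg/kg. All 4 neutrophil markers had higher means at 7D and 3 of the 4 at 21D, with sums of 4.49 to 14.7 CPM in control tendons and 52.5 to 106 CPM at 7D 0 mg/kg. All 5 adipocyte markers had higher means at each dose at 7D, with sums of 154 to 561 CPM in control tendons and 394 to 994 CPM at 7D 0 mg/kg. At 21D all 5 were above control at 0 mg/kg, 4 of the 5 were below it at 2 mg/kg and all 5 at 6 mg/kg. All 4 mast cell markers had higher means at each dose at 7D and at 21D 6 mg/kg, with 2 of the 4 higher at 21D 0 and 2 mg/kg, and sums of 8.39 to 83.9 CPM in control tendons and 61.3 to 139 CPM at 7D 0 mg/kg. All 4 listed endothelial markers had higher means at 7D 0 and 6 mg/kg, against 2 at 7D 2 mg/kg and 0 to 3 at 21D, and summed to 117 to 460.5 CPM in control tendons and 357 to 604 CPM at 7D 0 mg/kg. Smooth muscle or pericyte markers summed to 5215 to 8790.3 and 561 to 1308 CPM in the same groups, with 2 to 4 of 6 above control over the repaired groups. Des carried most of the control sum, with a mean of 6115 CPM there and 363 CPM at 7D 0 mg/kg. Cspg4 was also lower at 7D 0 mg/kg, at 44.8 CPM against 60.9 CPM in control tendons. The other 4 had higher means at 7D 0 mg/kg than in control tendons. Acta2 was at 179.8 against 63.4 CPM and Tagln at 286 against 79.1 CPM. Myh11 was at 70.9 against 48.2 CPM and Rgs5 at 90.8 against 66.2 CPM. Chondrocyte markers summed to 132 to 1002 and 20.6 to 120.1 CPM, the mean of Chad, chondroadherin, being 420.3 CPM in control tendons and 7.83 CPM at 7D 0 mg/kg. Of the 4 chondrocyte markers 2 had higher means than control in each repaired group except 7D 2 mg/kg, where 1 did. Of 3 listed Schwann cell markers 2 had higher means in each repaired group except 7D 2 mg/kg, where all 3 did, and they summed to 14.7 to 20.8 CPM in control tendons and 12.05 to 39.4 CPM at 7D 0 mg/kg. Tenocyte markers were present in every group, all 7 listed and none at 0. They summed to 1787 to 6892 CPM in control tendons and 1307 to 2271 CPM at 7D 0 mg/kg. The label of tendon was met only in that these markers were present, beside the muscle share given above. Of the 7, between 4 and 6 had lower means than control in each repaired group. At 7D 0 mg/kg the means of the tendon transcription factor Mkx, keratocan (Kera) and tenomodulin (Tnmd) were 0.329, 69.7 and 85.3 CPM, against 5.68, 591 and 229.6 CPM in control tendons. Fmod and Comp were also lower, at 520 and 379.6 CPM against 1615 and 421 CPM. The means of Scx and Thbs4 were higher, at 47.4 and 784 CPM against 27.2 and 619 CPM. The part of these cell mixtures in the differences below was not tested, and in bulk tissue fewer cells of a type and less RNA per cell cannot be told apart. When the listed muscle genes were left out of the table, the 6 genes that rose in every repaired group were called in all 6 groups again, with log2 fold changes between 1.31 and 6.03, while at 7D 2 mg/kg Hyal2 lost its call, with 0.28 (adjusted p = 0.0777), and Hyal1 gained one, with -0.62 (adjusted p = 0.0498) in edgeR.

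**Figure D1:**
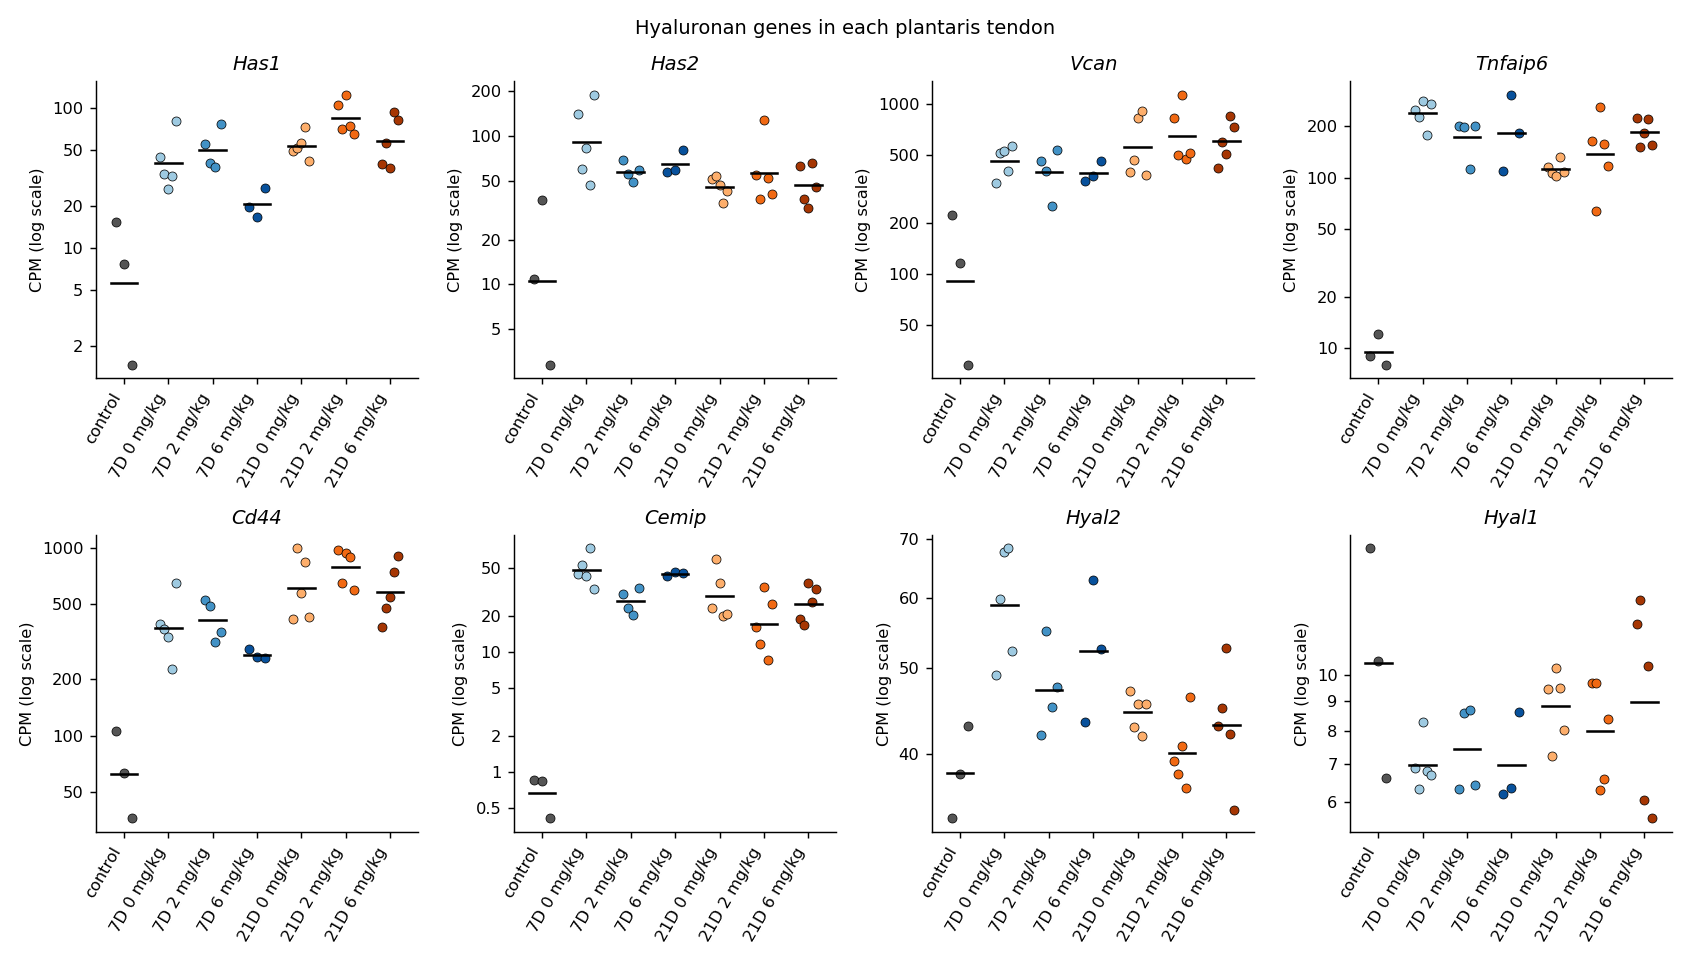
CPM scaled by TMM (log axis) of the 8 genes in each of the 30 tendons, by group, with a bar at the geometric mean. Cemip and Tnfaip6 show the widest gap between control and repaired tendons, while the Hyal1 and Hyal2 points of several repaired groups lie among those of control tendons.

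Against control tendons, 6 of the 8 genes rose in every repaired group: both synthases Has1 and Has2, the matrix genes Vcan and Tnfaip6, the receptor Cd44, and Cemip. Hyal2 rose at 7D at every dose and did not pass the test at 21D. Hyal1 fell at 7D 0 and 6 mg/kg and did not pass in the other 4 groups. In counts, at 7D 0 mg/kg 7 genes were higher and 1 lower, where 35.8% of the 12558 genes tested were called higher and 35.6% lower (edgeR quasi-likelihood test, Benjamini-Hochberg adjusted p under 0.05). At 7D 2 mg/kg the counts were 7 and 0 (35.8 and 34.0% of all genes), and at 7D 6 mg/kg they were 7 and 1 (34.1 and 33.8%). At 21D the counts were 6 and 0 at each dose, while 32.2, 33.8 and 30.8% of all genes were called higher and 33.7, 35.3 and 33.3% lower at 0, 2 and 6 mg/kg. The median log2 fold change of the 8 genes was 2.46, 2.19, 1.82, 2.49, 2.94 and 2.62 in the order 7D 0, 2, 6 and 21D 0, 2, 6 mg/kg, beside a median over all genes of 0.05, 0.05, 0.04, 0.03, 0.01 and 0.01. These 6 comparisons share the same 3 control tendons, and the share of all genes called the same way in all 6 was not counted. All fold changes below are given in that order of groups, as log2 fold change ± SE.

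**Figure D2:**
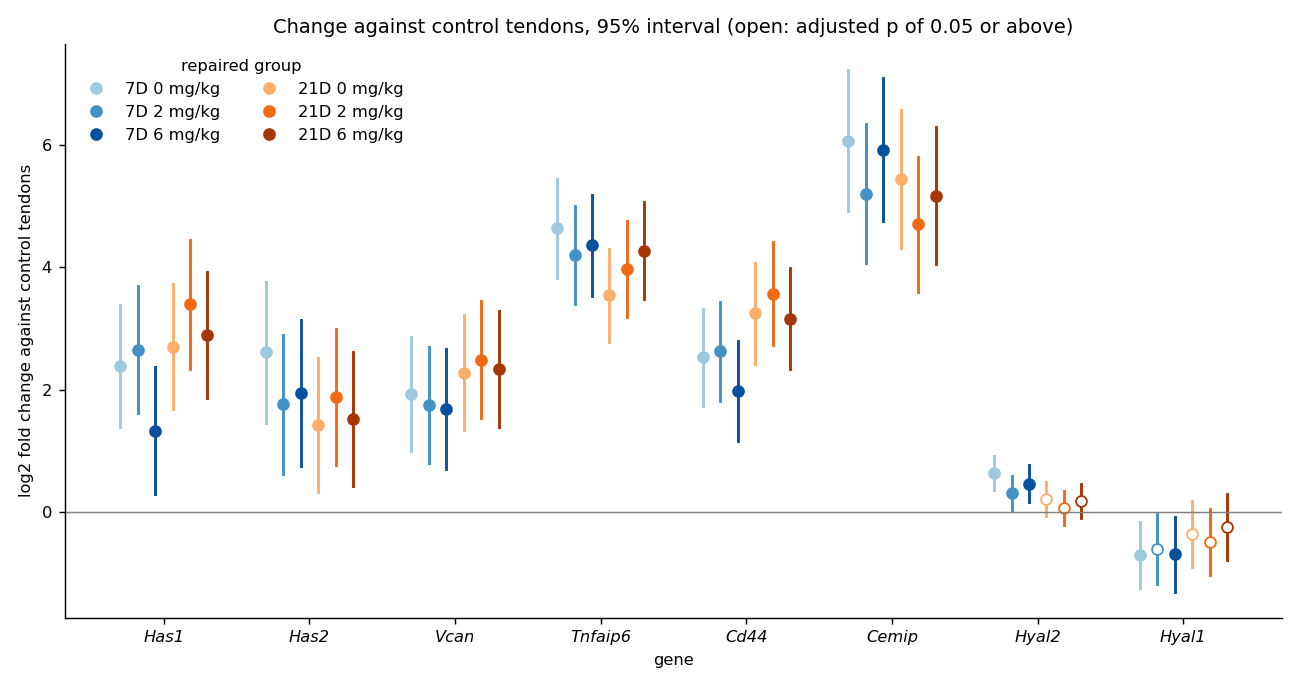
Log2 fold change of each gene against control tendons in the 6 repaired groups, with 95% intervals (lines) from the edgeR fit over all tendons. Filled points passed an adjusted p of 0.05, and the 6 genes on the left lie above 0 in every group, whereas Hyal2 and Hyal1 lie closer to 0.

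The hyaluronan synthase Has1 was at 15.3, 7.69 and 1.47 CPM in the control tendons. It was at 44.2, 33.6, 26.2, 32.4 and 80.8 CPM at 7D 0 mg/kg, 55.1, 40.0, 37.8 and 76.2 CPM at 7D 2 mg/kg and 19.6, 16.5 and 26.6 CPM at 7D 6 mg/kg. At 21D it was at 49.2, 51.7, 55.5, 72.5 and 41.8 CPM at 0 mg/kg, 104, 70.0, 124, 74.1 and 64.6 CPM at 2 mg/kg and 39.4, 56.2, 37.3, 93.1 and 82.0 CPM at 6 mg/kg. Every repaired tendon was above every control tendon, the 7D 6 mg/kg tendons coming nearest. The log2 fold changes were 2.39 ± 0.49, 2.65 ± 0.50, 1.33 ± 0.50, 2.70 ± 0.49, 3.39 ± 0.51 and 2.89 ± 0.50 (adjusted p from 2.90e-06 to 0.0216), which at 7D 0 mg/kg is a 5.23-fold rise. Without control replicate 2 they were 3.12, 3.39, 2.08, 3.44, 4.11 and 3.63. Leaving out control replicate 4 instead gave 1.86, 2.14, 0.83, 2.19, 2.87 and 2.38. The highest group mean was 87.4 ± 25.6 CPM (SD, n = 5) at 21D 2 mg/kg and the lowest repaired mean was 20.9 ± 5.15 CPM (SD, n = 3) at 7D 6 mg/kg, and neighbouring repaired groups in this order overlapped. The call at 7D 6 mg/kg ended without control replicate 3, control replicate 4 or 7D 6 mg/kg replicate 5, with 1.30 (adjusted p = 0.0553), 0.83 (adjusted p = 0.115) and 1.12 (adjusted p = 0.0784) in edgeR, and also in a fit of only the 2 groups compared, with 1.33 (adjusted p = 0.14).

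Has2, the synthase most often tied to cell migration and wound matrix, was at 10.9, 36.7 and 2.86 CPM in control tendons, which differed widely among themselves. It was at 141, 59.9, 82.6, 46.8 and 191 CPM at 7D 0 mg/kg, 68.5, 55.2, 48.9 and 58.7 CPM at 7D 2 mg/kg and 57.4, 58.9 and 80.8 CPM at 7D 6 mg/kg. At 21D it was at 50.9, 53.3, 46.9, 35.1 and 42.5 CPM at 0 mg/kg, 54.9, 37.8, 128, 52.3 and 40.6 CPM at 2 mg/kg and 62.3, 37.3, 32.6, 66.2 and 45.4 CPM at 6 mg/kg. The repaired tendons were above the control tendons at 7D and at 21D 2 mg/kg, while at 21D 0 and 6 mg/kg the lowest tendons lay just below control replicate 3. Has2 changed by 2.61 ± 0.56, 1.76 ± 0.55, 1.95 ± 0.58, 1.43 ± 0.53, 1.88 ± 0.54 and 1.52 ± 0.53 (adjusted p from 2.06e-04 to 0.0206). Without control replicate 3, the highest of the control tendons, the values were 3.91, 3.06, 3.24, 2.73, 3.19 and 2.82. The calls at 21D 0 and 6 mg/kg were lost when either of the other control tendons was left out. Without control replicate 4 they were 0.89 (adjusted p = 0.134) and 0.99 (adjusted p = 0.101) in edgeR, and without control replicate 2 they were 1.13 (adjusted p = 0.106) and 1.22 (adjusted p = 0.0833). In fits of only the 2 groups compared, Has2 was called only at 7D 0 mg/kg, with adjusted p between 0.0532 and 0.0935 in the other 5 groups (edgeR).

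The balance of the synthases was read within each tendon. The ratio of Has1 CPM to Has2 CPM within a tendon, which is not corrected for gene length and is read only between groups, was 0.314 to 0.693 (median 0.424) at 7D 0 mg/kg and 0.966 to 2.07 (median 0.984) at 21D 0 mg/kg, with no overlap. At 6 mg/kg it was 0.280 to 0.342 (median 0.329) at 7D and 0.632 to 1.80 (median 1.41) at 21D, again with no overlap. At 2 mg/kg the ranges overlapped, with 0.725 to 1.30 (median 0.789) at 7D and 0.967 to 1.90 (median 1.59) at 21D. Control tendons spanned 0.209 to 1.41 (median 0.514), overlapping every repaired group. This ratio was looked at after the values had been seen and is given with no test.

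**Figure D3:**
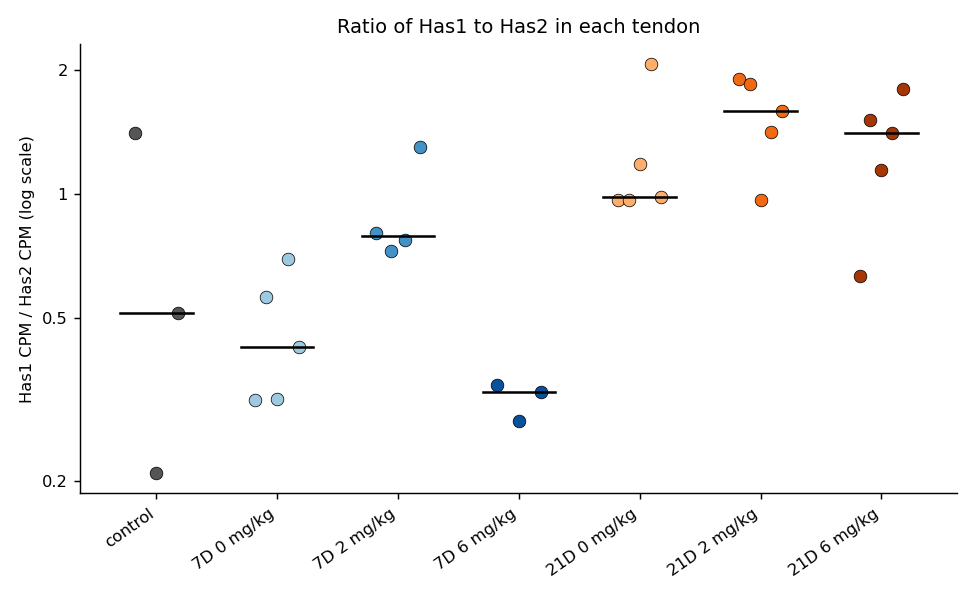
Ratio of Has1 CPM to Has2 CPM (log axis) in each tendon by group, with a bar at the group median. At 0 and 6 mg/kg the 21D tendons all lie above the 7D tendons of the same dose.

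Among the matrix genes, Vcan (versican) was at 221, 117 and 29.3 CPM in control tendons. It was at 343, 510.1, 525, 402 and 563 CPM at 7D 0 mg/kg, 461, 401, 250.1 and 536 CPM at 7D 2 mg/kg and 352, 375 and 458 CPM at 7D 6 mg/kg. At 21D it was at 399, 465, 826, 906 and 381 CPM at 0 mg/kg, 827, 503, 1132, 471 and 512 CPM at 2 mg/kg and 420.1, 599, 508, 852 and 731 CPM at 6 mg/kg. All repaired tendons were above all control tendons, though control replicate 2 came close to the lowest 7D 2 mg/kg tendon. The log2 fold changes were 1.94 ± 0.45, 1.75 ± 0.46, 1.69 ± 0.48, 2.28 ± 0.46, 2.49 ± 0.46 and 2.34 ± 0.46 (adjusted p from 4.58e-05 to 0.00307), and without control replicate 2 they were 2.62, 2.44, 2.38, 2.97, 3.16 and 3.03. Leaving out control replicate 4, the lowest control tendon, gave 1.42, 1.24, 1.19, 1.77, 1.97 and 1.84, each still called. At 7D 6 mg/kg the call ended in a fit of only the 2 groups compared, with 1.68 (adjusted p = 0.0607) in edgeR.

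Tnfaip6 (TSG-6) had tight control values of 8.96, 12.1 and 8.00 CPM. It was at 249, 227, 283, 179 and 269 CPM at 7D 0 mg/kg, 201, 199.5, 112 and 202 CPM at 7D 2 mg/kg and 109, 308 and 182 CPM at 7D 6 mg/kg. At 21D it was at 116, 107, 102, 132 and 108 CPM at 0 mg/kg, 165, 63.4, 261, 157 and 117 CPM at 2 mg/kg and 224, 152, 184, 221 and 156 CPM at 6 mg/kg. The lowest repaired tendon, at 21D 2 mg/kg, was still well above the highest control tendon. The log2 fold changes were 4.63 ± 0.39, 4.20 ± 0.39, 4.36 ± 0.40, 3.54 ± 0.37, 3.97 ± 0.38 and 4.27 ± 0.39, or 24.8-fold at 7D 0 mg/kg and 11.6-fold at 21D 0 mg/kg (adjusted p from 4.46e-10 to 2.64e-08).

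The receptor Cd44 was at 105, 63.4 and 36.2 CPM in control tendons. It was at 395, 368, 336, 226 and 652 CPM at 7D 0 mg/kg, 527, 488, 315 and 358 CPM at 7D 2 mg/kg and 290.0, 261 and 258 CPM at 7D 6 mg/kg. At 21D it was at 416, 995, 572, 836 and 427 CPM at 0 mg/kg, 968, 651, 940.1, 889.8 and 599.9 CPM at 2 mg/kg and 377, 478, 549, 742 and 909.9 CPM at 6 mg/kg. No repaired tendon was as low as a control tendon, and the 3 highest group means were those of the 21D groups, 649 ± 257, 809.9 ± 171 and 611 ± 214 CPM (SD, n = 5 each), which overlapped one another. Cd44 rose by 2.53 ± 0.38, 2.63 ± 0.39, 1.98 ± 0.40, 3.25 ± 0.40, 3.57 ± 0.41 and 3.16 ± 0.40 on the log2 scale (adjusted p from 5.34e-08 to 1.10e-04). CD44 is carried by leukocytes as well as fibroblasts, and most macrophage markers had higher means in the repaired groups, as given above. Their part in the Cd44 difference was not tested.

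Of the breakdown genes, Cemip changed most. It was close to absent in control tendons, at 0.849, 0.841 and 0.408 CPM or 18, 21 and 5 counts. It was at 44.7, 52.5, 43.0, 73.0 and 33.6 CPM at 7D 0 mg/kg, 30.4, 23.4, 20.3 and 34.3 CPM at 7D 2 mg/kg and 42.6, 46.0 and 45.2 CPM at 7D 6 mg/kg. At 21D it was at 23.2, 59.8, 37.1, 19.7 and 20.6 CPM at 0 mg/kg, 16.2, 11.6, 34.5, 8.47 and 25.1 CPM at 2 mg/kg and 18.7, 16.9, 37.2, 26.1 and 33.2 CPM at 6 mg/kg. Even the lowest repaired tendon was far above the control tendons. Cemip rose by 6.07 ± 0.56, 5.20 ± 0.55, 5.92 ± 0.57, 5.44 ± 0.55, 4.70 ± 0.53 and 5.16 ± 0.54 on the log2 scale (adjusted p from 1.54e-09 to 5.11e-08), the highest of the 8 genes in every group. The 67.0-fold rise at 7D 0 mg/kg has a 95% interval of 4.92 to 7.22 on the log2 scale.

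Hyal2, the membrane hyaluronidase, varied little. It was at 33.8, 38.0 and 43.0 CPM in control tendons, 49.1, 59.9, 67.8, 68.3 and 52.3 CPM at 7D 0 mg/kg, 42.1, 55.0, 45.3 and 47.6 CPM at 7D 2 mg/kg and 43.5, 62.9 and 52.6 CPM at 7D 6 mg/kg. At 21D it ranged from 41.9 to 47.2 CPM at 0 mg/kg, 36.6 to 46.4 CPM at 2 mg/kg and 34.6 to 52.7 CPM at 6 mg/kg, all overlapping control tendons. The rise at 7D was 0.64 ± 0.13, 0.31 ± 0.14 and 0.47 ± 0.15 at 0, 2 and 6 mg/kg (adjusted p = 1.72e-04, 0.0476 and 0.00716, edgeR), and at 21D the differences of 0.22 ± 0.13, 0.07 ± 0.13 and 0.19 ± 0.13 did not pass. Scaled by library size alone, they were 0.79 (adjusted p = 1.31e-05), 0.61 (adjusted p = 2.14e-04) and 0.70 (adjusted p = 6.66e-05) in edgeR, a scaling under which the median of all genes moved up by 0.51 to 0.64 against control tendons in the 6 groups. The call at 7D 2 mg/kg ended when any 1 of the 3 control tendons, or 7D 2 mg/kg replicate 3, 4 or 5, was left out, with log2 fold changes between 0.17 and 0.35, and the call at 7D 6 mg/kg ended without control replicate 2 or 7D 6 mg/kg replicate 4, both at 0.33 (adjusted p = 0.0890 and 0.0691, edgeR). The call at 7D 2 mg/kg also ended under RLE scaling, with 0.27 (adjusted p = 0.0877), by DESeq2, with 0.28 (adjusted p = 0.0735), and in a fit of only the 2 groups compared, with 0.29 (adjusted p = 0.155), as did the call at 7D 6 mg/kg in the last of these, with 0.44 (adjusted p = 0.0863).

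Hyal1, the lysosomal hyaluronidase, was low everywhere, at 16.7, 10.6 and 6.61 CPM in control tendons, 6.88, 6.33, 8.30, 6.81 and 6.69 CPM at 7D 0 mg/kg, 6.33, 8.60, 8.68 and 6.42 CPM at 7D 2 mg/kg and 6.19, 6.35 and 8.63 CPM at 7D 6 mg/kg. At 21D it ranged from 7.23 to 10.3 CPM at 0 mg/kg, 6.30 to 9.71 CPM at 2 mg/kg and 5.62 to 13.6 CPM at 6 mg/kg. Every repaired group overlapped the control tendons, whose lowest value lay among the 7D values. Against control the differences were -0.69 ± 0.26, -0.59 ± 0.28, -0.68 ± 0.30, -0.35 ± 0.26, -0.48 ± 0.26 and -0.24 ± 0.26 (edgeR adjusted p = 0.0198, 0.0578, 0.0453, 0.245, 0.105 and 0.431). The fall at 7D 0 and 6 mg/kg was not called without control replicate 2, with -0.37 (adjusted p = 0.241) and -0.34 (adjusted p = 0.332) in edgeR. Nor was it called with scaling by library size alone, with -0.13 (adjusted p = 0.655) and -0.13 (adjusted p = 0.71). Under that scaling the values at 21D 0, 2 and 6 mg/kg were above 0, at 0.18 (adjusted p = 0.557), 0.02 (adjusted p = 0.959) and 0.21 (adjusted p = 0.494) in edgeR. The call at 7D 6 mg/kg also ended without control replicate 3 or 7D 6 mg/kg replicate 1 or 4, with adjusted p = 0.0632, 0.134 and 0.116 (edgeR), as well as with no filter, with -0.67 (adjusted p = 0.0514), and with only the groups compared, with -0.70 (adjusted p = 0.138). At 7D 2 mg/kg Hyal1 was called lower by DESeq2, with -0.63 (adjusted p = 0.0352), and under RLE scaling, with -0.62 (adjusted p = 0.0463). Without control replicate 4, Hyal1 was called lower at 7D 2 mg/kg and at 21D at 0 and 2 mg/kg as well, with -0.91 (adjusted p = 0.00711), -0.66 (adjusted p = 0.0392) and -0.80 (adjusted p = 0.0119) in edgeR.

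Ordered by group mean, Has2 was highest at 7D 0 mg/kg (104 ± 60.3 CPM, SD, n = 5), as were Tnfaip6 (241 ± 40.9 CPM), Cemip (49.4 ± 14.8 CPM) and Hyal2 (59.5 ± 8.75 CPM). Has1, Cd44 and Vcan were highest at 21D 2 mg/kg, with Vcan at 689 ± 287 CPM (SD, n = 5), and Hyal1 was highest in control tendons, at 11.3 ± 5.08 CPM (SD, n = 3). In the order of each gene, neighbouring groups overlapped at every step but the last for Has1, Cemip, Cd44, Vcan and Tnfaip6, where the lowest repaired group stood apart from control tendons. How many of all genes have such a gap was not counted.

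Between 7 and 21 days, Tnfaip6 and Hyal2 fell in 0 mg/kg tendons, and Has1 and Cd44 rose in 6 mg/kg tendons. At 0 mg/kg, 0 of the 8 genes were called higher at 21D and 2 lower, where 2.88 and 2.47% of all genes were called. Tnfaip6 differed by -1.09 ± 0.27 (adjusted p = 0.0213, edgeR), with every 21D tendon below every 7D tendon. Hyal2 differed by -0.41 ± 0.11 (adjusted p = 0.0335, edgeR), also without overlap. Has2 had a difference of -1.19 ± 0.43 with an adjusted p of 0.0978 (edgeR), which did not pass. An unadjusted p under 0.05 was found for 4 of the 8 genes and for 2981 of the 12558 genes tested. Neither call held when single tendons were left out: Tnfaip6 was at -1.03 (adjusted p = 0.0651) without 7D 0 mg/kg replicate 3 and -1.08 (adjusted p = 0.0551) without 21D 0 mg/kg replicate 5, and Hyal2 ended with any of 6 tendons left out (7D 0 mg/kg replicates 2, 3 and 4 and 21D 0 mg/kg replicates 1, 4 and 5), with adjusted p between 0.0525 and 0.111 (edgeR).

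At 2 mg/kg no member of the 8 passed the test between 21D and 7D, against 7.09% of all genes called higher and 5.98% lower. Over all genes tested 3554 had an unadjusted p under 0.05, and 1 of the 8 did. That was Cd44, with a difference of 0.94 ± 0.32 (adjusted p = 0.0522 in edgeR) with no overlap between the groups. It was called by DESeq2, with 0.95 (adjusted p = 0.0173), and by edgeR without 21D 2 mg/kg replicate 5, with 1.03 (adjusted p = 0.0462). At 6 mg/kg, 2 genes were called higher at 21D and 0 lower, against 8.54 and 4.55% of all genes. Has1 rose by 1.56 ± 0.46 (adjusted p = 0.0258) and Cd44 by 1.18 ± 0.36 (adjusted p = 0.0296, edgeR), each with the 3 tendons at 7D below all 5 at 21D. Both calls ended when any of the 3 tendons at 7D 6 mg/kg, or 21D 6 mg/kg replicate 4, was left out, and Cd44 also without 21D 6 mg/kg replicate 5, with log2 fold changes between 1.36 and 1.77 for Has1 and between 0.99 and 1.24 for Cd44. Cemip had differences of -0.62 ± 0.33, -0.50 ± 0.35 and -0.76 ± 0.38 at 0, 2 and 6 mg/kg, but its adjusted p was 0.258, 0.368 and 0.196 (edgeR), so none of these differences passed. Vcan had differences of 0.34, 0.74 and 0.66, none of which passed. A call at 1 dose and not at another does not show that the doses differ. The median over the 8 genes was -0.05, 0.12 and 0.17 at the 3 doses, beside 0.01, 0.00 and 0.00 over all genes. The median summed muscle level was 3075 CPM at 7D 0 mg/kg and 17492 CPM at 21D 0 mg/kg, and neutrophil markers were lower, with sums of 52.5 to 106 CPM at 7D 0 mg/kg and 7.91 to 25.8 CPM at 21D 0 mg/kg. T cell sums were also lower without overlap at 0 mg/kg, at 28.2 to 62.4 CPM at 7D and 12.9 to 23.0 CPM at 21D. At 6 mg/kg the sums of 5 marker lists were lower at 21D than at 7D without overlap. Macrophage markers summed to 1114 to 1589 CPM at 7D and 442 to 931 CPM at 21D. For fibroblast markers the sums were 89957 to 97040.3 CPM at 7D and 67592 to 82782 CPM at 21D. Col1a1 and Col3a1 made up most of the fibroblast sum. Dpt alone in that list had a higher mean at 21D, at 1129 to 1511 CPM at 7D and 2047 to 2448 CPM at 21D. T cell markers summed to 52.1 to 56.6 CPM at 7D and 10.2 to 20.0 CPM at 21D and neutrophil markers to 37.7 to 98.5 CPM at 7D and 8.34 to 31.6 CPM at 21D. Adipocyte sums were 831 to 2042 CPM at 7D and 273 to 473 CPM at 21D. The muscle sum was higher at 21D, at 66.5 to 79.4 CPM at 7D and 2484 to 73065 CPM at 21D. Their part in these differences was not tested.

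**Figure D4:**
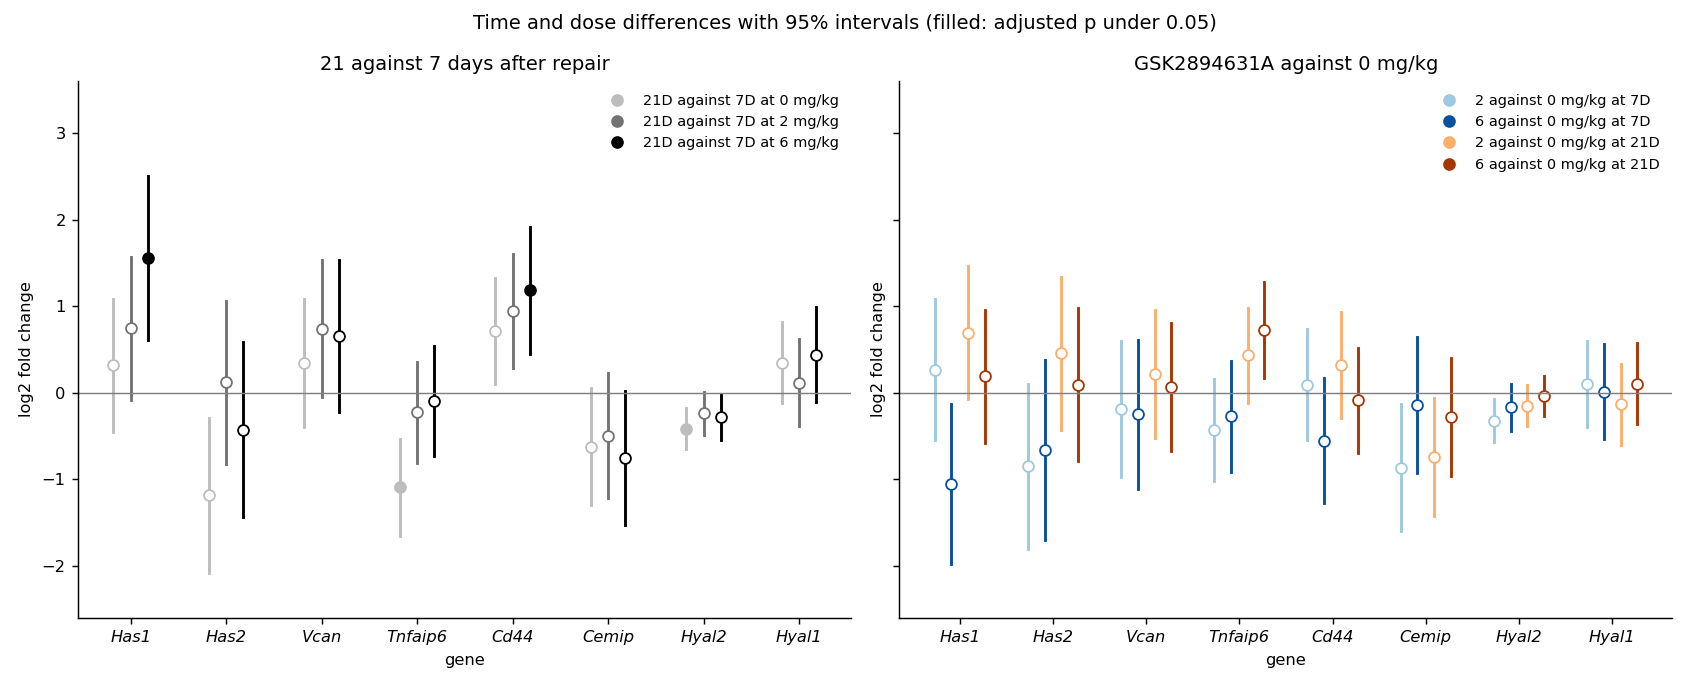
Log2 fold changes with 95% intervals between 21D and 7D at each dose (left) and between GSK2894631A at 2 or 6 mg/kg and 0 mg/kg at each time (right). Filled points passed an adjusted p of 0.05, which only Tnfaip6 and Hyal2 at 0 mg/kg and Has1 and Cd44 at 6 mg/kg did, all between times.

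The effect of the compound was examined by comparing doses within each time point. No member of the 8 was called between any pair of doses at either time by edgeR or DESeq2. At 7D, 2.36% of all genes were called between 2 and 0 mg/kg, 0.390% between 6 and 0 mg/kg and 0% between 6 and 2 mg/kg. For these pairs 1942, 746 and 997 genes had an unadjusted p under 0.05. At 21D the share of all genes called was 0, 0 and 0% for the same pairs, with 1078, 810 and 1751 genes at an unadjusted p under 0.05. The number of the 8 genes with an unadjusted p under 0.05 was 2, 1 and 1 at 7D and 1, 1 and 0 at 21D. The F-test across the 3 doses called 2.05% of all genes at 7D and 0% at 21D, and the test of whether dose differences changed between 7D and 21D called 0.390%. None of the 8 genes was among them, and 2, 1 and 1 of them had an unadjusted p under 0.05.

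The dose differences with an unadjusted p under 0.05 are given as values, with Has2 beside them. Has1 at 7D had a difference of 6 from 0 mg/kg of -1.05 ± 0.45 (95% interval -1.98 to -0.13, adjusted p = 0.72, edgeR) and of 6 from 2 mg/kg of -1.32 ± 0.47 (interval -2.28 to -0.35, adjusted p = 0.411, edgeR), and the 3 tendons at 6 mg/kg lay below all 4 tendons at 2 mg/kg. Between these 2 groups the fibroblast sums (78682 to 83141 CPM at 2 mg/kg and 89957 to 97040.3 CPM at 6 mg/kg) and T cell sums (13.9 to 39.6 and 52.1 to 56.6 CPM) did not overlap either. In the fibroblast list Pdgfra and Dpt went the other way. Their means were 342 and 1596 CPM at 2 mg/kg and 279 and 1280 CPM at 6 mg/kg. Muscle sums at 7D were 1046 to 8484 CPM at 0 mg/kg, above the 67.2 to 86.7 and 66.5 to 79.4 CPM at 2 and 6 mg/kg, and smooth muscle sums at 0 mg/kg were also above those at 2 mg/kg, 336 to 516 CPM. In the smooth muscle list the mean of Des was 363 CPM at 0 mg/kg and 59.4 CPM at 2 mg/kg. Cspg4 alone went the other way, at 44.8 and 82.6 CPM. The part of these in the dose differences was not tested. Cemip had differences of 2 from 0 mg/kg of -0.87 ± 0.36 at 7D and -0.74 ± 0.33 at 21D (adjusted p = 0.223 and 0.54, edgeR), with overlapping tendons. Tnfaip6 at 21D had a difference of 6 from 0 mg/kg of 0.73 ± 0.27 (interval 0.17 to 1.28, adjusted p = 0.741, edgeR), all 5 tendons at 6 mg/kg lying above all 5 at 0 mg/kg. The adipocyte sums at 21D did not overlap between these 2 groups either, with 490.4 to 678 CPM at 0 mg/kg and 273 to 473 CPM at 6 mg/kg, and their part was not tested. For Tnfaip6 the test of the dose by time difference had an unadjusted p of 0.0377 and an adjusted p of 0.587 (edgeR). Hyal2 at 7D had a difference of 2 from 0 mg/kg of -0.32 ± 0.12 (adjusted p = 0.171, edgeR). Has2 at 7D had a difference of 2 from 0 mg/kg of -0.85 ± 0.46 (adjusted p = 0.398, edgeR), and the interval of the 6 against 0 mg/kg difference at 7D ran from -1.71 to 0.38.

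The wider pathway was read from a list of 46 genes given by textbook roles, of which 32 were listed in the table and 30 were tested. Against control tendons 18 were higher and 5 lower at 7D 0 mg/kg, 16 and 5 at 7D 2 mg/kg and at 7D 6 mg/kg, 17 and 6 at 21D 0 and 2 mg/kg, and 17 and 5 at 21D 6 mg/kg, with medians between 0.81 and 0.97. Over all genes tested, 35.8% were called higher and 35.6% lower at 7D 0 mg/kg, the shares in the other groups are those given above, and the medians were 0.01 to 0.05. The counts by role that follow are to be read beside these shares. In all 6 repaired groups 13 genes were higher and 4 were lower, and 2 (Hyal3 and Gnpnat1) were called in none. The share of all genes called the same way in all 6 groups was not counted, so these counts are not read as a trait of the list. The third synthase, Has3, was low (7.16 ± 3.47 CPM in control tendons, SD, n = 3) and had log2 fold changes of -0.50 ± 0.32, -1.18 ± 0.34, -0.97 ± 0.37, -0.41 ± 0.32, -0.73 ± 0.32 and -0.49 ± 0.32, called lower at 7D 2 and 6 mg/kg and at 21D 2 mg/kg. Cemip2, a transmembrane hyaluronidase related to Cemip, was at 54.0 ± 16.8 CPM in control tendons (SD, n = 3) with log2 fold changes of -0.11 ± 0.18, -0.41 ± 0.19, -0.28 ± 0.21, -0.43 ± 0.18, -0.69 ± 0.18 and -0.54 ± 0.18, called lower in the 3 groups at 21D. Hyal3, next to Hyal1, was at 0.03 ± 0.18, 0.04 ± 0.19, 0.10 ± 0.20, -0.14 ± 0.18, 0.08 ± 0.18 and -0.16 ± 0.18, none of which passed.

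Of 8 genes for UDP-sugars, 3 were higher and 2 lower at 7D 0 mg/kg, where 35.8 and 35.6% of all genes were called. Ugp2, which makes UDP-glucose, fell by 2.54 and Gfpt1, the entry enzyme of the hexosamine pathway, fell by 1.75 on the log2 scale at 7D 0 mg/kg, both lower in all 6 groups. Both enzymes are also abundant in muscle, and the muscle share was lower in the same groups. Its part was not tested. Of 5 receptors other than Cd44, 4 were higher and 1 lower at 7D 0 mg/kg. The receptor that fell was Lyve1, the hyaluronan receptor of lymphatic vessels and some macrophages, named after its values were seen, with -1.17 ± 0.37 at 7D 0 mg/kg and -0.90 ± 0.37 at 21D 0 mg/kg, and it was not called in the other 4 groups. Tlr2, a pattern receptor that also senses hyaluronan fragments, changed by 2.47 ± 0.50 at 7D and 2.00 ± 0.49 at 21D in 0 mg/kg tendons. Stab1, a scavenger receptor of macrophages and endothelium, rose by 1.90 ± 0.48 at 7D 0 mg/kg and 1.96 ± 0.51 at 7D 6 mg/kg and was not called in the other 4 groups, with 1.06 ± 0.48 at 7D 2 mg/kg and 0.61 ± 0.45 at 21D 0 mg/kg. Ptx3, a pentraxin that works with TSG-6 and heavy chains in hyaluronan crosslinking, rose by 3.54 ± 0.50 at 7D 0 mg/kg and by 1.96 ± 0.46 at 21D 0 mg/kg. It fell from 7D to 21D at each dose, with differences of -1.57 ± 0.36, -2.20 ± 0.38 and -1.27 ± 0.40 at 0, 2 and 6 mg/kg (adjusted p = 0.014, 5.04e-04 and 0.0356, edgeR). Acan, the cartilage proteoglycan, was called higher only at 7D 0 mg/kg (1.93 ± 0.69) and 21D 0 mg/kg (1.80 ± 0.69), and a difference between doses was not called.

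Of 3 lysosomal enzymes that remove the sugars released from hyaluronan, 2 were higher at 7D 0 mg/kg, with Gusb, beta-glucuronidase, at 2.51 ± 0.35 and Hexa, a subunit of beta-hexosaminidase, at 1.09 ± 0.13 there, and both were called in all 6 groups. Of 6 proteases that cut versican or aggrecan, 5 were higher and 1 lower at 7D 0 mg/kg. Adamts15 went from 14.3 ± 5.94 CPM (SD, n = 3) in control tendons to 305 ± 42.1 CPM (SD, n = 5) at 7D 0 mg/kg, a change of 4.41 ± 0.31, and Adamts4 changed by 4.33 ± 0.55. The protease that fell was Adamts20, named here after its values were seen, from 42.2 ± 12.1 CPM (SD, n = 3) in control to 1.54 ± 0.960 CPM (SD, n = 5) at 7D 0 mg/kg and 0.0910 ± 0.182 CPM (SD, n = 4) at 7D 2 mg/kg. The muscle share was lower in the same groups, and its part was not tested. The genes of all 3 proteins that link CD44 to actin were called in all 6 groups, with the same direction in each, which was not counted over all genes. At 7D 0 mg/kg moesin (Msn) rose by 1.41 ± 0.22 and ezrin (Ezr), named after its values were seen, by 1.48 ± 0.38, while radixin (Rdx) fell by 0.995 on the log2 scale. Between doses, 3 of the 30 genes were called at 7D between 2 and 0 mg/kg (Lyve1 and Gnpnat1 higher, Adamts1 lower at 2 mg/kg), where 2.36% of all genes were called, and 0 in the other 5 pairs, where 0 to 0.390% were. Hapln1 and Hapln3, link protein genes, were below the expression filter.

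**Figure D5:**
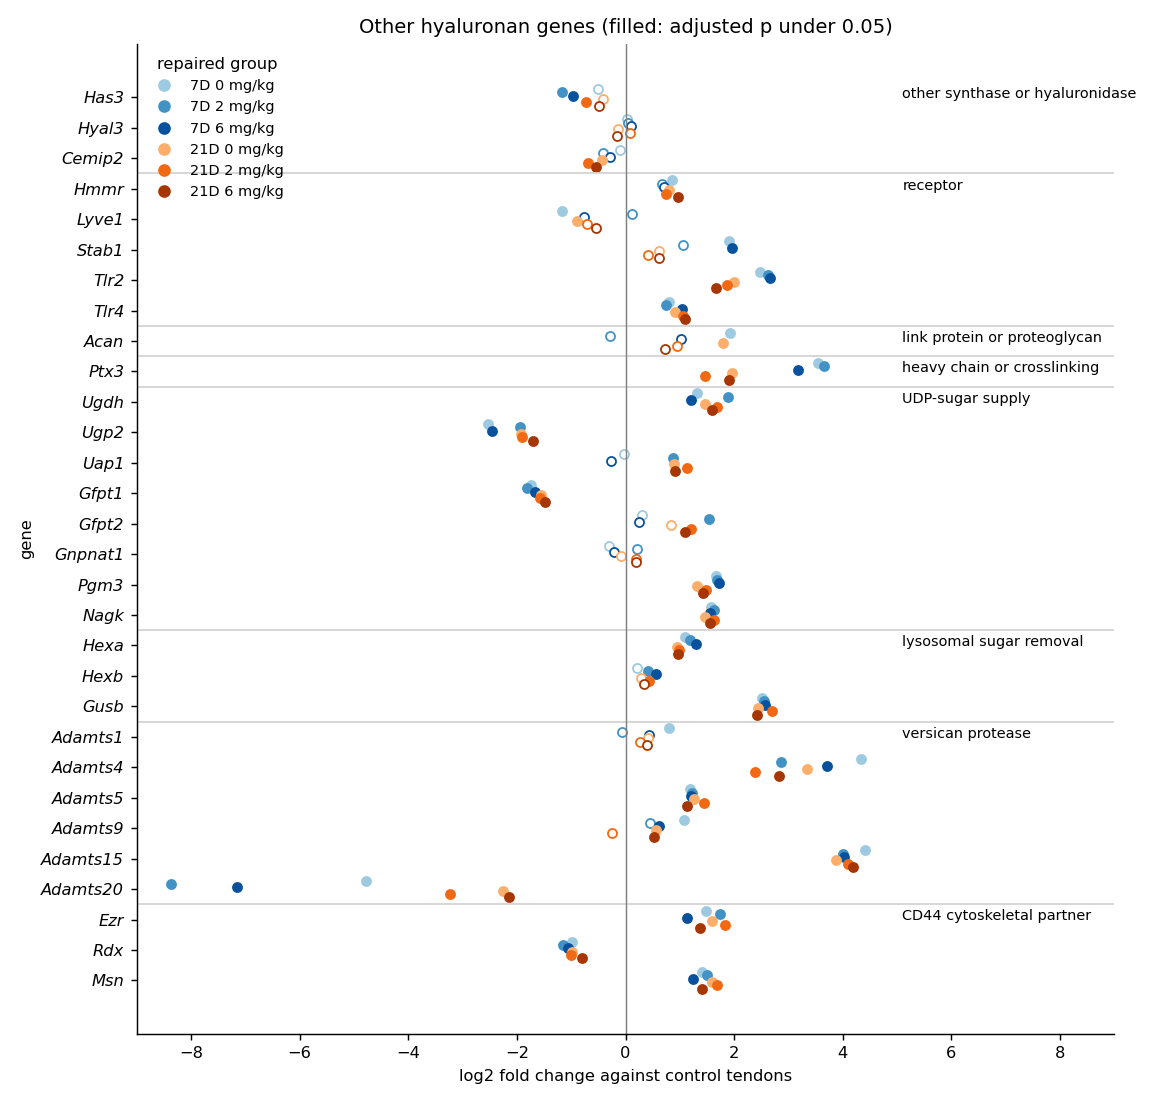
Log2 fold change against control tendons of the 30 other hyaluronan genes tested, by role, in the 6 repaired groups. Filled points passed an adjusted p of 0.05, with Adamts15, Adamts4, Ptx3, Tlr2 and Gusb farthest to the right in most groups and Ugp2, Gfpt1, Rdx and Adamts20 to the left in all 6.

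The patterns of the 8 genes over all 30 tendons were compared by the root mean square difference of log2 CPM after each gene was centred on its mean, over all genes that passed the filter. This is a description over tendons that share the control against repaired difference. The gene most like Has1 was Cd44 (0.46 on the log2 scale, against an SD of 1.26 for Has1 itself), followed by Vcan (0.52). Tnfaip6 was nearest to Adamts15 and Ttk (both 0.42, own SD 1.36), and Cemip to Spon1 (0.49) and Cthrc1 (0.50), with an own SD of 1.77. Vcan was nearest to Diaph3 (0.28) and Thbs3 (0.29), Cd44 to Rab15 (0.38) and Gas7 (0.45), and Has2 to Pcdh7 (0.53) and Tnfsf9 (0.55). Hyal2 and Hyal1, which varied least, with own SDs of 0.26 and 0.38, were nearest to Ddb1 (0.17) and Srsf6 (0.18), and to Wnk1 and Ash1l (both 0.28).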

How the data were processed

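RNA sequencing counts of 30 right plantaris tendons in 7 groups were used as deposited. The authors trimmed 50-base single-end reads with fastp, aligned them with STAR to rn6 (Ensembl release 95) and deposited raw counts per gene, with gene width as another value. The log2 fold changes and p-values of the authors' own comparisons were not used. Here edgeR 4.0.16 (R 4.3.3) scaled counts by TMM to CPM, kept the 12558 of 13124 genes whose mean reached 3 CPM in any group, and fitted 7 group means to all tendons with the quasi-likelihood test, Benjamini-Hochberg adjustment and a threshold of 0.05. Intervals are 95%. The replicates are tendons of different rats. The script was tested on simulated data. Alternatives were RLE or library-size scaling, no filter, muscle genes left out, a replicate block, DESeq2 1.42.0, only the groups compared, a prior count of 0.25 in place of 2, and leaving out each tendon. The 8 genes and all lists were chosen with earlier results of these data known. Named were the 8 genes, the 2 of each wider role with the smallest adjusted p at 7D 0 mg/kg, Has3, Hyal3 and Cemip2, and the 2 nearest patterns per gene; others were named after their values were seen. Promoter windows are RefSeq, GRCr8.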

Additional observations from a re-analysis of the deposited data

Results flagged for a closer look

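In groups of 4 or 5 tendons, 40 sets of values were examined for a single tendon far from the rest, and 3 had one, where chance flags about 1 in 20 groups. Has2 in 21D 2 mg/kg replicate 3 was at 128.1 CPM, against 37.8 to 54.9 CPM in the other 4 tendons. Hyal1 in 7D 0 mg/kg replicate 3 was at 8.30 CPM, against 6.33 to 6.88 CPM in the others. Tnfaip6 in 7D 2 mg/kg replicate 4 was at 112.1 CPM, against 199.5 to 202.5 CPM in the others. This tendon also stood apart in cell markers of its group. Its tenocyte sum was 1077 CPM, against 1932 to 2177 CPM in the others. The Schwann cell sum was 134.8 CPM, against 24.7 to 34.0 CPM. Its adipocyte sum was the highest, at 2425 CPM against 560.3 to 2193 CPM. The part of these in the Tnfaip6 value was not tested.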

How the results depend on the processing

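Of the single-gene values under other settings, 809 kept their side of the threshold (5 of them with a changed sign, called under neither setting), 10 gained a call and 21 lost one. With 1 tendon left out 967 kept their side (33 with a changed sign, called in neither fit), 4 gained and 37 lost a call. Of the mean log2 CPM of a gene in a group, 3 moved by more than the SD, all with library size alone (Hyal2 and Tnfaip6 in control tendons and Cemip at 7D 6 mg/kg). No called value changed sign. Between 21D and 7D at 2 mg/kg, where 0 of the 8 genes were called, 1 was called under RLE scaling, with no filter, by DESeq2 and with only the groups compared. At 6 mg/kg the 2 calls became 1 with library size alone and with the replicate block. With only the groups compared, which leaves fewer samples in the fit, calls were 3 in place of 8 for 7D 6 mg/kg against control and 1 in place of 2 between times at 0 mg/kg. With single tendons left out, the calls between times ranged from 0 to 2 at 0 mg/kg, 0 to 1 at 2 mg/kg and 0 to 2 at 6 mg/kg. The cause was not tested. Scaling by library size alone gave 74.1 to 77.8% of calls against control as higher. Replicate numbers were not shown to pair tendons, since with 3 or more pairs the lowest correlation of same-numbered tendons was below 0.1 in every comparison, and the replicate block also ended the calls of Has1 (1.24, adjusted p = 0.0575, edgeR) and Hyal1 at 7D 6 mg/kg. In control tendons 3 counts were the limit for genes as low as Cemip.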
